A study of Mus musculus with 12 samples.

Results

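The comparison described here is that of tumors treated with vincristine and the FOXM1 inhibitor RCM1 against tumors treated with vincristine (VCR) alone. The question it addresses is what the second drug, given in nanoparticles, adds at the level of RNA. Its members are 6 of the 12 tumors of the series, chosen by their labels: the 3 VCR tumors m4, m5 and m6, and the 3 VCR+RCM1-NPFA tumors m10, m11 and m12. All tumors were grown from 1 cell line, Rd76-9, a mouse embryonal rhabdomyosarcoma (RMS) line injected into the flank of wild-type C57/Bl6J mice aged 8 to 12 weeks, and were dissected at day 16 for bulk RNA, so that each holds host tissue beside tumor cells. Mice of the VCR group received vincristine at 0.25 mg/kg. Mice of the combination group received the same dose together with 8 µg of RCM1 in folic-acid-coated poly(beta-amino ester) nanoparticles (RCM1-NPFA). The study's methods do not state whether mice of the VCR group also received empty nanoparticles. If they did not, RCM1 and its nanoparticle cannot be told apart in this comparison. The other tumors of the series, 3 Vehicle (saline and empty nanoparticles, although a label of these tumors also names RCM1 nanoparticles) and 3 RCM1-NPFA without VCR, entered the fit and are given only beside the results.

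Vincristine is a vinca alkaloid that binds tubulin and blocks the growth of spindle microtubules, so that dividing cells are held in mitosis. FOXM1 is a forkhead transcription factor that drives genes of the G2 phase and of mitosis, among them cyclin B, Plk1, Cdc20 and the Aurora kinases, and RCM1 is a small molecule that keeps it from acting in the nucleus. Embryonal RMS is a tumor of cells with features of immature skeletal muscle, and bulk flank tumors can also hold RNA of adult muscle, vessels, blood and immune cells.

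Values are CPM, the estimated counts of a gene's transcripts scaled to the size of their library, and a log2 fold change is VCR+RCM1-NPFA against VCR throughout, with its standard error (SE), from edgeR's quasi-likelihood test with Benjamini-Hochberg adjustment over all genes tested. The 12 libraries held between 29342195 and 32108055 estimated counts, and the 6 compared here between 30348808 and 32049539. The RMS line was recognised by the cadherin Cdh15, at 155 to 200 CPM in the 6 tumors, and by the myogenic factor Myf5, at 53.4 to 67.9 CPM, whereas the muscle determination factor Myod1 did not exceed 2.37 CPM and myogenin (Myog) did not exceed 2.15 CPM. Summed Y-linked transcripts were at 0.522 CPM in m5 and 1.19 CPM in m10 and at 19.5 to 23.7 CPM in the 4 other tumors, so that 1 low tumor stood in each group.

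Across all genes the addition of RCM1-NPFA gave no change that passed the test. Of 17602 genes, 0 (0%) had an edgeR adjusted p under 0.1, and the smallest adjusted p was 0.855. At an unadjusted p under 0.05, 454 genes were higher (2.58%) and 472 lower (2.68%) in the combination tumors. In 993 genes (5.64%) every combination tumor lay above every VCR tumor, and in 1340 genes (7.61%) every combination tumor lay below. The median log2 fold change of all genes was -0.0042, and the median SE of a gene was 0.158.

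The count of calls depended on the tool. The limma-voom test called 0 genes, with 872 at an unadjusted p under 0.05. DESeq2 with all 12 tumors called 11 genes (0.0625%), 10 of them higher and Fhl1 lower. DESeq2 with the 6 tumors alone called 45 of 16875 genes (0.267%), 24 higher and 21 lower. On data of 12 tumors simulated with edgeR's own estimates of the spread, DESeq2 made more false calls than its threshold allows and edgeR did not. That setting favors edgeR, and the DESeq2 fit of 6 tumors was not simulated, so the simulation does not rank the tools. As edgeR was set as the main test, the DESeq2 counts and adjusted p are given beside its values. Without VCR tumor m6 the DESeq2 count on the remaining 11 tumors was 133, without m10 it was 16, without m5 it was 1, and without m4, m11 or m12 it was 0. As no gene passed the edgeR test, the values that follow describe these 6 tumors. The edgeR adjusted p of the genes named below lay between 0.855 and 0.965.

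Interferon-stimulated genes and genes of the MHC class I pathway showed the widest positive shift among the 32 gene lists. Type I and II interferons activate STAT and IRF factors, which bind short paired elements near the start of their target genes and raise antiviral proteins, the immunoproteasome and the peptide loading machinery of MHC class I. All 22 members of the list were tested and all 22 had a log2 fold change above 0, with a median of 0.71 and a range of 0.26 to 1.24. Of these, 4 had an unadjusted p under 0.05 (all genes higher, 2.58%), 2 did not overlap between the groups (all genes higher, 5.64%) and 0 passed the adjusted threshold.

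Paired elements of this kind were searched as TTTCNNTTTC or its reverse complement GAAANNGAAA in the 250 bases before the start site in RefSeq promoters of GRCm38.p6. Of 18 list members with a promoter entry 9 held a match, against 3.46% of 27025 genes with an entry and 3.26% of the 13517 tested genes with one. The next highest share of a list was that of ribosomal protein genes, with 3 of 13 (23.1%). A match is a run of letters and not a measured binding site. As the list was chosen as interferon targets, a high share could be foreseen from that choice and is not a result about RCM1-NPFA. The stretches below belong to genes whose values are given further on. No match was found for Irf7 or Oasl2, which are described first. Each is 60 bases, 5′ to 3′ along the gene's strand and upstream of the start site of its promoter entry, with the matches in capitals. For Ifit3 and Gbp3 the annotated gene begins before that start site, at chr19:34583119 and chr3:142560016.
Isg15, chr4:156200856-156200915, minus strand: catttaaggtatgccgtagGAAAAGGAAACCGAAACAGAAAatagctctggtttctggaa
Ifit1, chr19:34640770-34640829, plus strand: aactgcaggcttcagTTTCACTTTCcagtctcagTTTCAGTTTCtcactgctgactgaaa
Ifit3, chr19:34583365-34583424, plus strand: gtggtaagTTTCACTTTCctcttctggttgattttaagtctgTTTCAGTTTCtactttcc
Bst2, chr8:71537565-71537624, minus strand: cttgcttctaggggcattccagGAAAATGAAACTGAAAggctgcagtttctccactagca
Gbp3, chr3:142559977-142560036, plus strand: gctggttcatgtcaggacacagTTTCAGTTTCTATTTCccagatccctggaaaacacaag
Gbp2, chr3:142620579-142620638, plus strand: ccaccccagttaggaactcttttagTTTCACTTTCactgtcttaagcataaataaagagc
Oas1g, chr5:120887614-120887673, minus strand: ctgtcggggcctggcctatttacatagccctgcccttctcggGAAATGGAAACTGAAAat
In Isg15, Bst2, Gbp3 and Oas1g successive matches overlapped in a single run, in Ifit1 and Ifit3 they stood apart, and Gbp2 held 1 match. Oas1g is not on the list and is among the genes with the smallest p below. Romo1, also off the list and among those genes, held 1 match that is not printed. Unlike Oas1g it was lower in the combination tumors.

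Irf7, the interferon regulatory factor that amplifies the type I response, was at 22.4, 29.2 and 27.2 CPM in VCR tumors m4, m5 and m6 and at 31.3, 34.0 and 80.6 CPM in combination tumors m10, m11 and m12. The groups did not overlap, and most of the distance came from m12. Its log2 fold change was 0.89 (SE 0.30, edgeR adjusted p = 0.855), and 0.31 without m12. Oasl2, an oligoadenylate synthetase-like antiviral protein, was at 41.3, 39.7 and 50.9 CPM with VCR and at 48.9, 65.8 and 124.5 CPM with the combination. The groups of Oasl2 overlapped by m10, and its log2 fold change was 0.86 (SE 0.33), and 0.38 without m12.

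The members with the printed elements were chosen after their values were seen. Ifit3, which binds viral RNA together with Ifit1, was at 13.0, 16.9 and 18.2 CPM with VCR and 21.4, 19.3 and 42.8 CPM with the combination, the second member whose groups did not overlap. Isg15, a ubiquitin-like modifier, was at 14.3, 16.9 and 17.99 CPM with VCR and 17.3, 20.9 and 47.6 CPM with the combination. In both genes m12 stood more than 1 log2 unit above the VCR mean, and m10 and m11 lay near the VCR range. The guanylate-binding protein Gbp3 differed in its order, at 26.3, 17.1 and 27.6 CPM with VCR and 16.7, 60.7 and 89.5 CPM with the combination. Bst2 (tetherin), which holds virus particles at the cell surface, followed it in part, at 67.5, 64.7 and 72.4 CPM with VCR and 55.8, 89.7 and 158.5 CPM with the combination. In both genes m10 was the lowest of the 6 tumors, m11 and m12 were above all VCR tumors, and the log2 fold changes were 1.23 (SE 0.60) for Gbp3 and 0.57 (SE 0.31) for Bst2, and 0.71 and 0.09 without m12. Ifit1 (0.70, SE 0.35) and the guanylate-binding protein Gbp2 (1.19, SE 0.69) had log2 fold changes of the same sign, and their groups overlapped. Without m12 the values were 0.39 for Ifit1, 0.70 for Gbp2, 0.34 for Ifit3 and 0.22 for Isg15.

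Tumor m12 was the highest of the 6 in all 22 members and m11 was above every VCR tumor in 20, whereas m10 was below every VCR tumor in 11 and above every VCR tumor in 3. H2-D1, an MHC class I heavy chain, was at 930.8, 532.5 and 846.5 CPM with VCR and 382.2, 1089 and 1632 CPM with the combination, a log2 fold change of 0.43 (SE 0.56). The summed CPM of the list was 3310, 2098 and 3163 with VCR and 1737, 4324 and 6444 with the combination. The groups overlapped, and without m12 the list's median log2 fold change was 0.25.

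**Figure D1:**
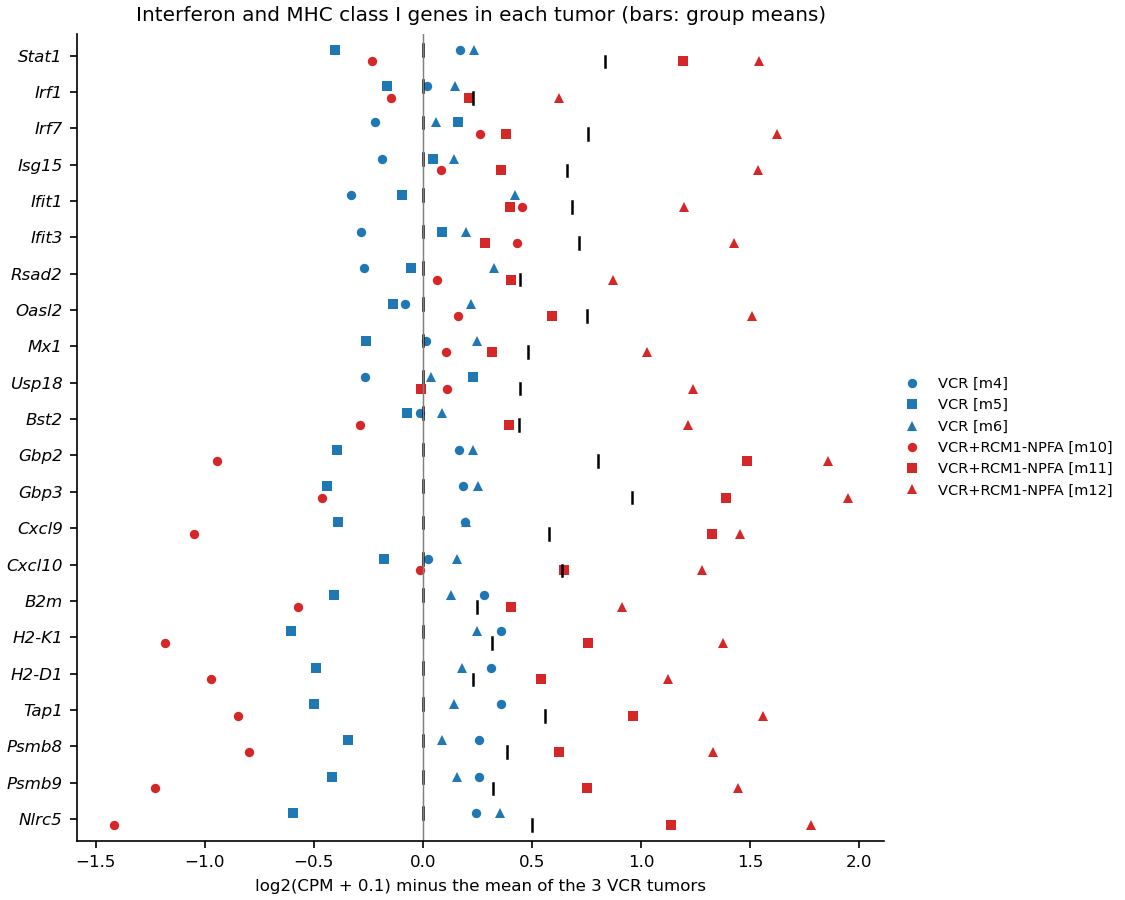
The 22 interferon and MHC class I genes in each of the 6 tumors, as log2(CPM + 0.1) minus the mean of the VCR tumors (x axis). Blue marks are VCR, red marks are VCR+RCM1-NPFA and black bars are group means. Tumor m12 (red triangles) lies farthest to the right in all 22 genes, and m10 (red circles) lies below every VCR tumor in 11, most of them MHC class I pathway genes.

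MHC class II genes, which present antigen on macrophages, dendritic cells and B cells, followed the same tumors. All 7 had a log2 fold change above 0 (median 0.32) and 0 had an unadjusted p under 0.05. Their summed CPM was 1012, 789 and 1122 with VCR and 311, 1365 and 1968 with the combination. Tumor m10 was below and m11 and m12 above every VCR tumor in all 7 genes, and the list's median was -0.19 without m12. For Ciita, the master regulator of class II transcription, the log2 fold change was 0.73 (SE 0.75), and for the invariant chain Cd74 it was 0.28 (SE 0.88) and -0.10 by limma-voom. In bulk tumors fewer cells of a type and less RNA per cell cannot be told apart.

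Without VCR, RCM1-NPFA gave the interferon list values on the other side of 0, from tumors that are not shared with the comparison above. The summed CPM was 6490, 2871 and 1794 in Vehicle and 2735, 1442 and 2224 in RCM1-NPFA tumors, which overlap. The median log2 fold change of RCM1-NPFA against Vehicle was -0.54, with 0 of 22 members above 0. The difference of the RCM1-NPFA effect with and without VCR, tested as an interaction in edgeR, had a median of 1.25 over the list. For this difference 11 of 22 members had an unadjusted p under 0.05 (all genes, 13.8%). This was not particular to the list. The count was 22 of 22 for adult muscle fiber genes, 9 of 17 for endothelial genes and 7 of 13 for myogenic genes. The muscle fiber sum was 182.5, 251.7 and 21310 CPM in RCM1-NPFA tumors m7, m8 and m9, and the myogenic sum 339.8, 406.5 and 998.4 CPM. No gene of 17602 passed the adjusted threshold for the difference of the RCM1-NPFA effect (smallest adjusted p = 0.293), whereas DESeq2 called 461. Irf7 had an interaction of 1.10 (edgeR adjusted p = 0.309).

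**Figure D2:**
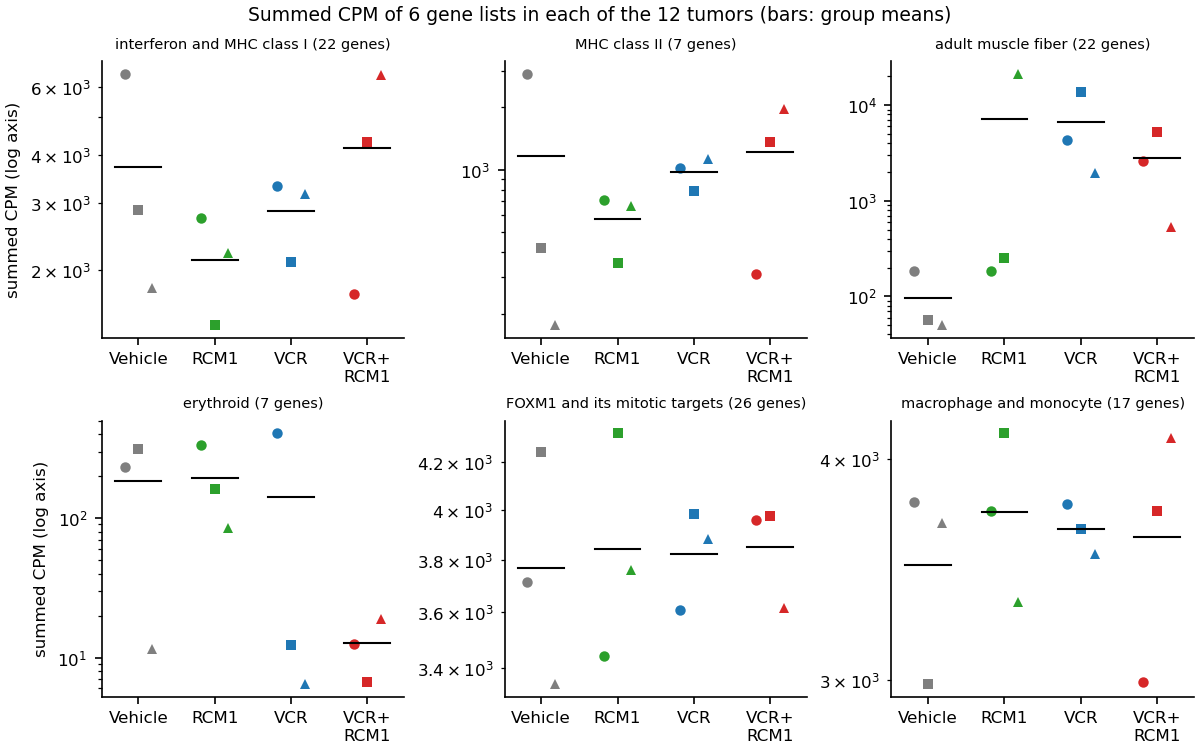
Summed CPM (log axis) of 6 gene lists in the 12 tumors, by group, with 1 mark a tumor and black bars for group means. The interferon and MHC class II sums of the combination tumors spread to both sides of the VCR tumors, the muscle fiber sum is widest in the RCM1-NPFA group, and the erythroid sum of the VCR group rests on m4.

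Adult muscle fiber genes were lower in the combination tumors on average and differed widely within both groups. All 22 members had a log2 fold change below 0, with a median of -1.35. Only 1 of the 22, Myh1, had an unadjusted p under 0.05 (all genes lower, 2.68%), and 2 did not overlap (all genes lower, 7.61%). The summed CPM was 4364, 13750 and 1969 with VCR and 2602, 5242 and 532 with the combination. It was 50.3 to 183.5 in Vehicle tumors and 182.5, 251.7 and 21310 in RCM1-NPFA tumors m7, m8 and m9. In RCM1-NPFA against Vehicle all 22 members were above 0, with a median log2 fold change of 6.71. Nearly all of the RCM1-NPFA sum came from m9, and m7 lay within the Vehicle range. Tumor m5 was the highest of the 6 in all 22 genes and m12 the lowest in 20, and without m5 the list's median was -0.27.

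Myh1, the type IIx myosin heavy chain of fast fibers, was at 71.0, 305.9 and 85.0 CPM with VCR and 64.0, 23.2 and 31.1 CPM with the combination (log2 fold change -1.98, SE 0.88, and -0.98 without m5). The groups of Myh1 did not overlap, although m10 came close to m4. Myoglobin (Mb), the oxygen store of muscle, was at 9.47, 26.2 and 12.8 CPM with VCR and 6.22, 5.46 and 3.80 CPM with the combination (log2 fold change -1.65, SE 1.02). DESeq2 on the 6 tumors gave Mb an adjusted p of 0.00151, and with a term for muscle fiber RNA in the edgeR fit its log2 fold change was -0.84. The fast myosin Myh4 overlapped, at 642, 2603 and 304 CPM against 546, 1228 and 61.2 CPM, and its log2 fold change of -0.97 (SE 2.12) was 0.73 with that term and 0.37 without m5.

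Genes of myogenic regulation were mostly lower as well, with 12 of 13 tested members below 0, a median of -0.84 and 0 at an unadjusted p under 0.05. In RCM1-NPFA against Vehicle 10 of the 13 were above 0 (median 0.86). The summed CPM of the list was 312.1, 366.7 and 405.7 in Vehicle tumors. It was 339.8, 406.5 and 998.4 in RCM1-NPFA tumors m7, m8 and m9. Myod1 was at 2.37, 2.35 and 1.22 CPM with VCR and 0.640, 0.711 and 0.447 CPM with the combination. The groups of Myod1 did not overlap at these low levels, and its log2 fold change was -1.72 (SE 1.03), with an adjusted p of 0.0495 by DESeq2 on the 6 tumors and a log2 fold change of -0.87 with the fiber term. Cdh15, the cadherin of myoblasts, was at 199.9, 199.1 and 193.5 CPM with VCR and 173.7, 174.2 and 155.0 CPM with the combination. These groups did not overlap either (log2 fold change -0.24, SE 0.12), and the value was -0.24 with the muscle fiber term and -0.10 with splines of GC content and length. The fiber term brought the median of the regulators from -0.84 to -0.24.

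Among the DESeq2 calls on 6 tumors were further muscle-related genes, named here after their values were seen. Thbs4, a matricellular thrombospondin of muscle and tendon, was at 24.2, 24.7 and 31.7 CPM with VCR and 11.5, 7.34 and 6.39 CPM with the combination (edgeR log2 fold change -1.67, SE 0.63; DESeq2 adjusted p = 9.1e-11). Ankrd2, a stretch-responsive ankyrin repeat protein of slow fibers, was at 9.79, 5.32 and 6.93 CPM with VCR and 2.41, 2.72 and 1.28 CPM with the combination (edgeR log2 fold change -1.78, SE 0.87). Neither gene overlapped between the groups. With the fiber term the log2 fold changes were -1.40 for Thbs4 and -1.33 for Ankrd2, and both had an edgeR adjusted p of 0.86 there.

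The target of RCM1 and the genes of mitosis differed little. Foxm1 was at 165.9, 169.7 and 169.6 CPM with VCR and 172.5, 171.1 and 150.4 CPM with the combination. The groups overlapped (log2 fold change -0.04, SE 0.09, edgeR adjusted p = 0.949), and a two-sided exact permutation test gave p = 1, where the smallest p that 3 tumors against 3 allow is 0.1. RNA levels do not report on the activity of the FOXM1 protein. Of the 26 members of the FOXM1 and mitosis list 8 were above 0 and 18 below (median -0.06, range -0.21 to 0.19), 2 had an unadjusted p under 0.05 (all genes lower, 2.68%) and 4 did not overlap (7.61%), all of them lower. Cdc20, the activator of the anaphase-promoting complex, was at 187.6, 214.1 and 184.5 CPM with VCR and 165.6, 179.8 and 171.9 CPM with the combination (log2 fold change -0.18, SE 0.08).

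Ube2c, the ubiquitin-conjugating enzyme of the same complex, was at 120.4, 137.1 and 115.7 CPM with VCR and 111.2, 107.1 and 105.8 CPM with the combination (log2 fold change -0.21, SE 0.09). Both genes were lower in every combination tumor than in every VCR tumor. The proliferation marker Mki67, at 410.1, 477.3 and 473.6 CPM with VCR and 555.8, 536.9 and 466.5 CPM with the combination, overlapped and lay on the other side (log2 fold change 0.19, SE 0.14), as did the topoisomerase Top2a (0.16, SE 0.13). With the splines Mki67 was at 0.06 and Top2a at 0.07. DNA replication genes were split, 13 above and 10 below 0 with a median of 0.02 and 0 at an unadjusted p under 0.05. The licensing factor Cdt1 had a log2 fold change of -0.19 (SE 0.15) and the DNA polymerase subunit Pola1 one of 0.19 (SE 0.15), or -0.06 and 0.08 with the splines.

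Tubulins, the proteins that vincristine binds, lay slightly below the VCR level. Of 20 tubulins and microtubule regulators 14 were below 0 (median -0.13). Of the 20, 2 had an unadjusted p under 0.05 (all genes lower, 2.68%) and 7 did not overlap (all genes lower, 7.61%), all of them lower. Tubb6, a beta tubulin, was at 247.9, 279.9 and 249.1 CPM with VCR and 221.6, 237.4 and 227.8 CPM with the combination (log2 fold change -0.18, SE 0.08). Tuba1c, an alpha tubulin, was at 375.9, 441.2 and 377.9 CPM with VCR and 331.3, 364.2 and 362.5 CPM with the combination (log2 fold change -0.18, SE 0.08). The beta tubulin Tubb5 and the alpha tubulin Tuba1b had log2 fold changes of -0.12 (SE 0.10) and -0.18 (SE 0.11, and -0.03 with the splines), and their groups did not overlap either.

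Differences of this size moved with the length and GC content of transcripts. With GC content and length entered as splines, as above, the log2 fold changes were -0.05 for Tubb6, -0.06 for Tuba1c, -0.06 for Cdc20 and -0.04 for Ube2c. Without m5 they were -0.11, -0.09, -0.11 and -0.12. Drug efflux transporters, only some of which pump vinca alkaloids, had 8 of 8 tested members above 0. Their median was 0.10, with 0 at an unadjusted p under 0.05. Abcb1b, a P-glycoprotein gene, was at 41.6, 37.0 and 47.2 CPM with VCR and 48.6, 52.8 and 44.7 CPM with the combination, which overlap (log2 fold change 0.21, SE 0.12). Abcc1 (MRP1) was at 129.4, 144.6 and 143.6 CPM with VCR and 157.8, 156.5 and 155.2 CPM with the combination (log2 fold change 0.17, SE 0.11), and its groups did not overlap.

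Chac1, the gamma-glutamylcyclotransferase that degrades glutathione and is induced by ATF4, was at 21.1, 13.0 and 11.3 CPM in VCR tumors m4, m5 and m6 and at 10.95, 7.82 and 6.99 CPM in combination tumors m10, m11 and m12. The groups did not overlap, with m10 just below m6. Its log2 fold change was -0.82 (SE 0.37, edgeR adjusted p = 0.855), and -0.51 without m4. A two-sided exact permutation test over the 6 tumors gave p = 0.1, the smallest that 3 against 3 allow. Vehicle tumors had a mean of 21.0 CPM and RCM1-NPFA tumors one of 14.2 CPM, and the difference of the RCM1-NPFA effect with and without VCR was -0.26 (edgeR adjusted p = 0.851).

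The other genes of the integrated stress response were split in direction. Of the 23 members of the ATF4 list, Chac1 included, 13 were above and 10 below 0 with a median of 0.00. Chac1 was the only one with an unadjusted p under 0.05 (all genes lower, 2.68%). Atf4 itself had a log2 fold change of -0.20 (SE 0.14, and -0.04 with the splines). Of 15 genes of glutathione metabolism 12 were below 0 (median -0.12), with 1 at an unadjusted p under 0.05 (all genes lower, 2.68%) and 2 that did not overlap (7.61%), and the median was 0.01 with the splines. Gpx4, the peroxidase that reduces lipid peroxides with glutathione, was at 264.2, 304.4 and 242.1 CPM with VCR and 198.5, 221.3 and 245.7 CPM with the combination, which overlap by m12 (log2 fold change -0.29, SE 0.11, and -0.06 with the splines). Gclm, the modifier subunit of glutamate-cysteine ligase, was at 57.1, 58.6 and 55.7 CPM with VCR and 48.0, 53.6 and 52.1 CPM with the combination, which do not overlap (log2 fold change -0.16, SE 0.08).

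Chaperones and cell death genes were near the VCR level. Endoplasmic reticulum chaperones were split 11 above and 7 below 0, with Creld2, a secreted stress-induced factor, at -0.15 (SE 0.07, and -0.00 with the splines) and Hsp90b1 (GRP94) at 0.19 (SE 0.10). Cytosolic heat shock genes were split 7 and 4. Of 21 apoptosis genes 8 were above and 13 below 0 (median -0.03), with 1 at an unadjusted p under 0.05 (all genes higher, 2.58%). Bcl2, the anti-apoptotic founder of its family, was at 20.4, 17.8 and 21.3 CPM with VCR and 27.1, 22.6 and 20.8 CPM with the combination, which overlap (log2 fold change 0.24, SE 0.11, and 0.14 without m10), and the BH3-only gene Bmf had a value of 0.34 (SE 0.16, and 0.18 without m10). p53 targets were split 6 above and 11 below 0, with 0 at an unadjusted p under 0.05.

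**Figure D3:**
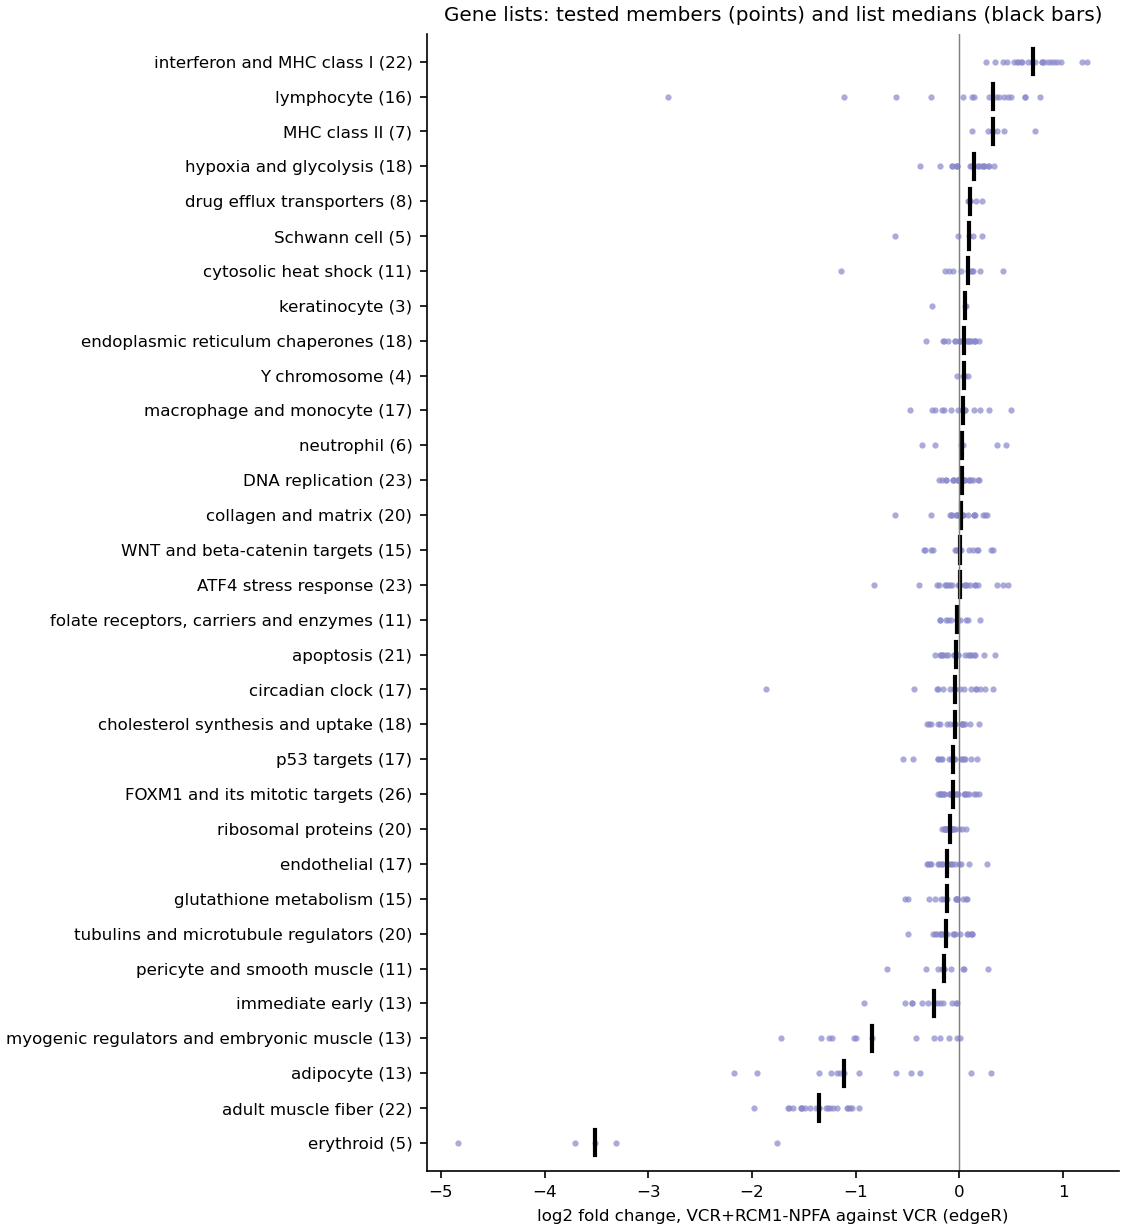
The log2 fold change (x axis) of each tested member of the gene lists (points), with black bars at list medians and the number of tested members in parentheses. Interferon and MHC class I genes lie farthest to the right with a median of 0.71, adult muscle fiber genes have a median of -1.35, and the FOXM1, replication, apoptosis and stress lists lie close to 0.

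The 24 genes with the smallest p whose groups did not overlap, 12 in each direction, all had an edgeR adjusted p of 0.855. They were picked for this separation, so that it is a property of the choice. Of the higher genes 4 are given first, for interferon response or leukocyte expression. Ifi44, an interferon-induced GTP-binding protein, was at 3.06, 2.32 and 5.06 CPM with VCR and 8.08, 7.24 and 14.3 CPM with the combination (log2 fold change 1.51, SE 0.38). Oas1g, an oligoadenylate synthetase that senses double-stranded RNA and whose upstream bases are printed above, was at 3.57, 4.08 and 3.74 CPM with VCR and 6.19, 7.21 and 13.8 CPM with the combination (log2 fold change 1.25, SE 0.33). In both genes m12 was again the highest, and the log2 fold changes without it were 1.14 for Ifi44 and 0.81 for Oas1g.

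Phf11d, an interferon-responsive PHD finger gene, had a log2 fold change of 0.87 (SE 0.23), or 0.55 without m12, from 5.37, 5.51 and 6.93 CPM to 8.08, 9.31 and 15.2 CPM. For Evi2, a membrane protein of leukocytes, it was 1.27 (SE 0.32), with 2.05, 1.53 and 1.94 CPM against 5.03, 3.30 and 5.01 CPM. Evi2 was as high in m10 as in m12, unlike the interferon genes.

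The other 8 higher genes had log2 fold changes of 0.25 to 0.43 and several encode large chromatin and transcription proteins: Kmt2d, an H3K4 methyltransferase, Setd5, a SET domain protein, Chd2, a chromatin remodeller, and Rreb1, a zinc finger factor of RAS signalling. Rreb1 was at 53.3, 53.2 and 54.4 CPM with VCR and 66.7, 64.7 and 62.4 CPM with the combination (log2 fold change 0.27, SE 0.06). Setd5 was at 114.1, 110.3 and 130.6 CPM with VCR and 143.5, 144.6 and 147.1 CPM with the combination (log2 fold change 0.29, SE 0.07). In Setd5 m6 stood nearer to the combination tumors than m4 and m5 did. The remaining members were Nbr1, a selective autophagy receptor (log2 fold change 0.28), Prune2 (0.30), the presynaptic scaffold Bsn (0.43) and the RNA-binding protein Khnyn (0.32).

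Long transcripts were frequent among them. The 12 higher genes had a median effective length of 6101 bases against 2644 for all tested genes, and 10 of 12 were longer than that median. Over all genes the median log2 fold change moved from -0.10 in the quintile of shortest transcripts to 0.10 in that of the longest, and from 0.07 in the quintile of lowest GC content to -0.11 in that of the highest (Spearman across genes 0.295 with length and -0.336 with GC, a description, since genes share the libraries). The median of the longest quintile minus that of the shortest, against the mean of all tumors, was -0.22, -0.28 and -0.00 in the VCR tumors and 0.12, 0.03 and -0.08 in the combination tumors. With the splines the log2 fold changes of Rreb1, Kmt2d, Bsn and Khnyn were 0.24, 0.27, 0.45 and 0.33, those of Chd2, Nbr1, Setd5 and Prune2 were 0.25, 0.19, 0.17 and 0.17, and no gene passed the adjusted threshold.

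**Figure D4:**
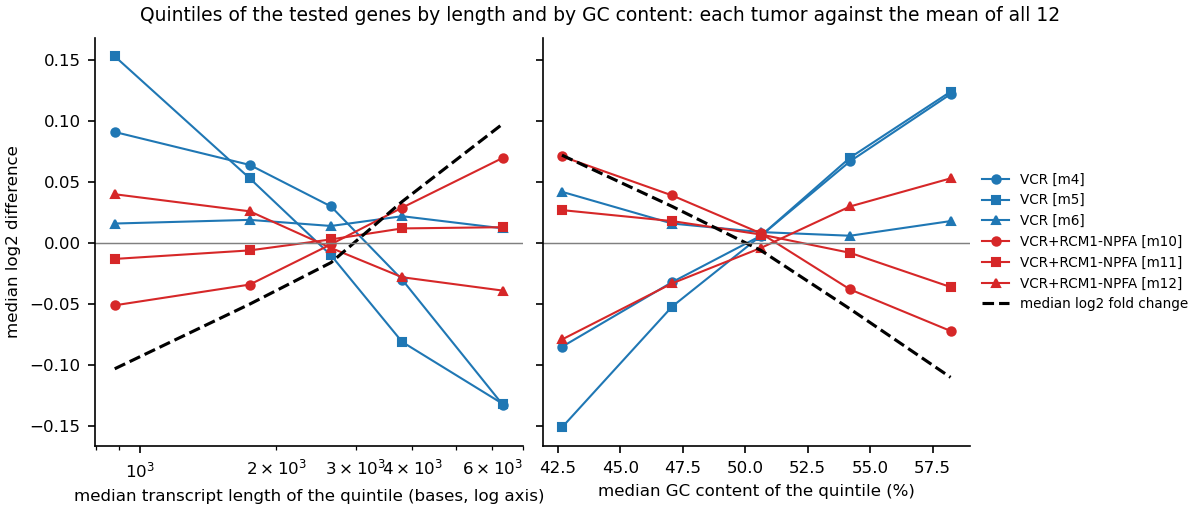
Median log2 difference of each of the 6 tumors from the mean of all 12 (solid lines) and median log2 fold change (dashed) in quintiles of the tested genes by transcript length (left, log axis) and GC content (right). VCR tumors m4 and m5 slope down with length and up with GC content, m6 is nearly flat, and the combination tumors lie between or slope the other way.

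Of the 12 lower genes Fhl1 was also called by DESeq2 with all 12 tumors. Fhl1, a LIM-only protein of skeletal muscle on the X chromosome, was at 78.7, 95.0 and 79.4 CPM with VCR and 50.1, 48.4 and 47.3 CPM with the combination (log2 fold change -0.80, SE 0.19). Vehicle tumors had a mean of 34.5 CPM and RCM1-NPFA tumors one of 62.0 CPM. DESeq2 gave Fhl1 an adjusted p of 0.0766 with all 12 tumors and 1.35e-10 with the 6 alone, and edgeR with the muscle fiber term gave a log2 fold change of -0.68 (adjusted p = 0.86). Romo1, a small inner mitochondrial membrane protein, was at 46.9, 55.0 and 37.7 CPM with VCR and 28.5, 32.9 and 36.2 CPM with the combination (log2 fold change -0.52, SE 0.14, and -0.26 with the splines), with m12 just below m6.

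Enzymes and carriers among the rest were Dohh, a hydroxylase that completes hypusine on eIF5A (log2 fold change -0.29), the phosphoglycolate phosphatase Pgp (-0.31), the mitochondrial coenzyme A carrier Slc25a42 (-0.56) and the palmitoyltransferase Zdhhc7 (-0.24). Signalling genes were the kinase Pim3 (-0.28), Rhobtb2 (-0.29) and the endothelial membrane protein Tmem204 (-0.54). Secreted proteins at low levels were Dmbt1, a scavenger receptor glycoprotein (1.74, 1.11 and 1.44 CPM against 0.275, 0.582 and 0.639 CPM), Angptl7 (0.537, 1.34 and 1.54 CPM against 0.183, 0.356 and 0.0958 CPM) and the lysophospholipase Enpp2, or autotaxin (4.26, 1.40 and 1.15 CPM against 0.610, 0.614 and 0.830 CPM). The log2 fold change of Enpp2 was -1.73 (SE 0.47), and -0.90 without m4. With the splines the values were -0.07 for Dohh, -0.19 for Pgp, -0.15 for Zdhhc7 and -0.13 for Pim3.

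**Figure D5:**
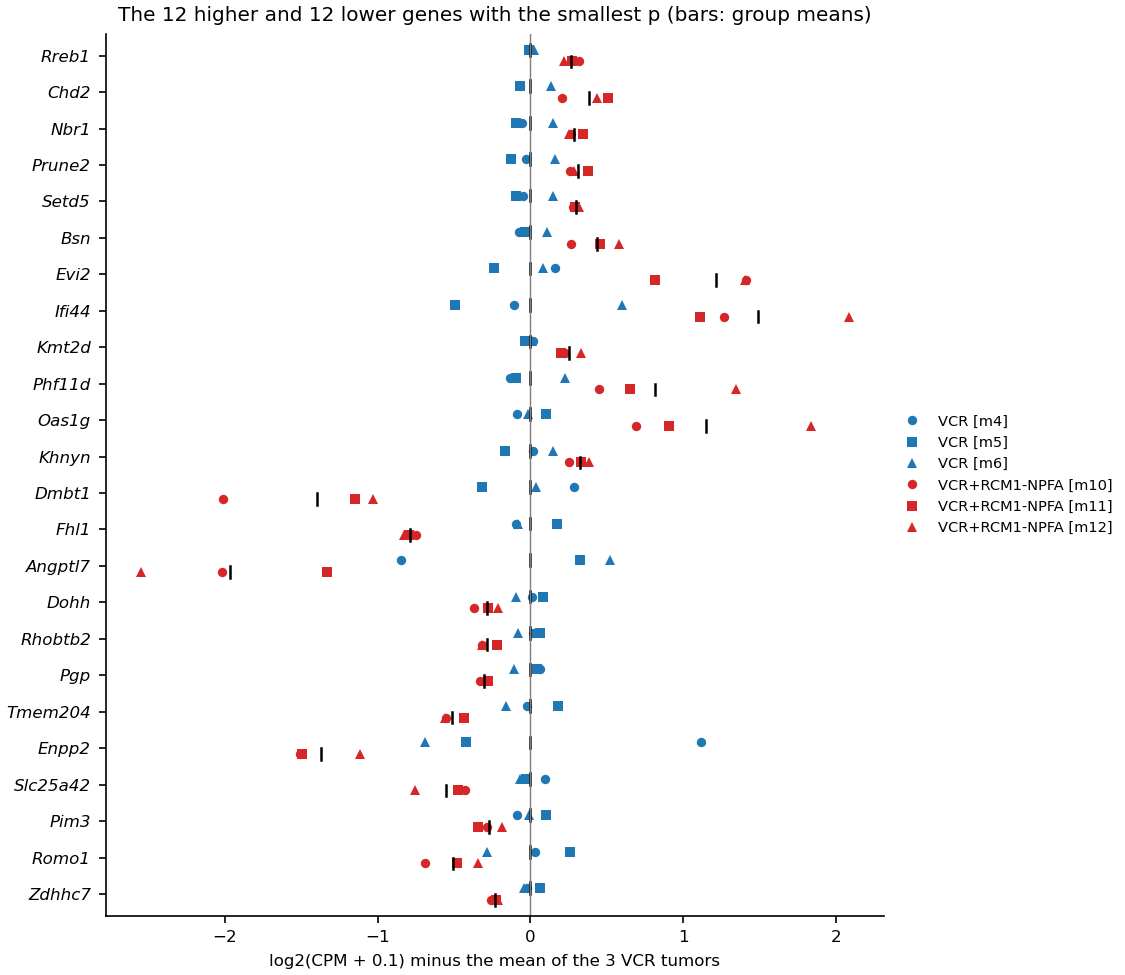
The 24 genes with the smallest p in each of the 6 tumors, as log2(CPM + 0.1) minus the VCR mean, with blue marks for VCR, red marks for VCR+RCM1-NPFA and black bars for group means. Rreb1 and Setd5 differ by 0.27 and 0.29 and Fhl1 by -0.80. Evi2, Ifi44, Oas1g, Dmbt1, Angptl7 and Enpp2 differ by more than 1 in size. The combination group of Oas1g and the VCR group of Enpp2 are wide.

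Of 17 macrophage and monocyte genes 10 were above 0 (median 0.03). Of the 17, 2 had an unadjusted p under 0.05, both higher (all genes higher, 2.58%). The groups did not overlap in 2 higher members (all genes higher, 5.64%) and 1 lower member (all genes lower, 7.61%). Adgre1 (F4/80) was at 108.9, 91.4 and 109.5 CPM with VCR and 116.4, 133.6 and 129.2 CPM with the combination, which do not overlap (log2 fold change 0.29, SE 0.10). Itgam (CD11b) did not overlap either, at 158.1, 139.8 and 169.9 CPM against 181.2, 185.0 and 171.4 CPM (log2 fold change 0.20, SE 0.08), whereas the lysozyme gene Lyz2 had a value of -0.15 (SE 0.19). The summed macrophage list overlapped, at 3535 to 3775 CPM with VCR and 2994 to 4113 CPM with the combination, and was lowest in m10 and highest in m12.

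Vessel genes lay slightly lower. Of 17 endothelial genes 14 were below 0 with a median of -0.12, and without m5 the median was 0.04. In RCM1-NPFA against Vehicle 16 of the 17 were above 0 (median 0.42). The adhesion molecule Pecam1 (CD31) had a log2 fold change of -0.12 (SE 0.13), Esam one of -0.28 (SE 0.15) and the receptor Tie1 one of -0.31 (SE 0.19), or 0.04, -0.13 and -0.16 without m5. Vegfa, the main growth factor of vessels, was at a mean of 225 CPM with VCR and 220 CPM with the combination (log2 fold change -0.03, SE 0.13, edgeR adjusted p = 0.965). Of 11 pericyte and smooth muscle genes 8 were below 0, with Myh11, the smooth muscle myosin, at -0.69 (SE 0.35) and Rgs5 at -0.20 (SE 0.11).

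Blood genes came from 1 tumor. The summed CPM of the erythroid list was 407.5 in m4, 12.3 in m5 and 6.43 in m6, and 12.6, 6.69 and 18.8 in the combination tumors. All 5 tested globin and erythroid genes were below 0 with a median of -3.52, 4 of them at an unadjusted p under 0.05 (all genes lower, 2.68%), and without m4 the median was 0.30. The hemoglobin gene Hba-a1 had a log2 fold change of -3.31 (SE 1.31) and 0.07 without m4, and the B cell receptor component Cd79a one of -2.81 (SE 0.98) and 0.08 without m4, where it was at 10.6 CPM. Lymphocyte genes were 12 above and 4 below 0 (median 0.32, and -0.06 without m12). At an unadjusted p under 0.05 were 0 higher and 1 lower, Cd79a (all genes, 2.58% higher and 2.68% lower). Adipocyte genes had 11 of 13 below 0, with a median of -1.11 and 0 at an unadjusted p under 0.05. Tumors m11 and m12 were below every VCR tumor in 11 and 12 of the 13 and m10 in 1, and the median was -0.37 without m5 and -2.91 without m10.

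Genes of folate handling were listed since the nanoparticle carries folic acid as its ligand. The folate receptor gene Folr1 was too low to be tested, at 0.0305 to 0.189 CPM in the 6 tumors. Folr2, the receptor of macrophages, was at 19.1, 32.7 and 23.0 CPM with VCR and 25.0, 18.2 and 25.6 CPM with the combination (log2 fold change -0.13, SE 0.24), which overlap. Fpgs, the synthetase that retains folates in cells, was at 54.1, 53.1 and 47.6 CPM with VCR and 46.6, 44.2 and 45.7 CPM with the combination (log2 fold change -0.18, SE 0.07, and -0.05 with the splines). It was the only one of 11 tested members at an unadjusted p under 0.05 (all genes lower, 2.68%).

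Targets of WNT and beta-catenin signalling were split 8 above and 7 below 0 (median 0.01). In each direction 1 member had an unadjusted p under 0.05 (all genes, 2.58% higher and 2.68% lower). Znrf3, a ubiquitin ligase that removes WNT receptors, was at 20.5, 19.7 and 22.0 CPM with VCR and 29.9, 26.2 and 22.2 CPM with the combination (log2 fold change 0.33, SE 0.11). Myc was at 244.5, 272.6 and 251.7 CPM with VCR and 217.0, 207.2 and 222.6 CPM with the combination (log2 fold change -0.25, SE 0.11, and -0.14 with the splines). Neither gene overlapped, and the feedback inhibitor Axin2 stood on the side of Znrf3, at 0.31 (SE 0.15).

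Clock genes were split 8 and 9 around 0. Hlf, a PAR bZIP output factor of the clock, stood apart, at 9.60, 5.19 and 5.68 CPM with VCR and 0.854, 2.84 and 1.92 CPM with the combination (log2 fold change -1.87, SE 0.54, edgeR adjusted p = 0.855; DESeq2 on 6 tumors, adjusted p = 0.00363). Its groups did not overlap, and no other of the 17 members had an unadjusted p under 0.05 (all genes lower, 2.68%). Immediate early genes, which respond within minutes to growth factors, were below 0 in all 13 cases (median -0.24, and -0.08 with the splines). Of the 13, 1 had an unadjusted p under 0.05 (all genes lower, 2.68%), and in 0 did the groups not overlap (all genes lower, 7.61%). The early factor Ier2 had a value of -0.36 (SE 0.16, and -0.14 with the splines) and Nr4a1 one of -0.92 (SE 0.44, and -0.48 without m4).

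Matrix genes were 12 above and 8 below 0 (median 0.02). Decorin (Dcn), a collagen-binding proteoglycan, was at 23.4, 37.1 and 24.8 CPM with VCR and 19.3, 16.1 and 20.3 CPM with the combination (log2 fold change -0.62, SE 0.29, and -0.37 without m5), whereas the collagen Col6a3 lay on the other side (0.22, SE 0.15). Hypoxia and glycolysis genes were 11 above and 7 below 0, cholesterol genes 7 and 11, ribosomal protein genes 2 and 18 (median -0.09, and 0.06 with the splines) and neutrophil genes 4 and 2, each with 0 at an unadjusted p under 0.05. The keratinocyte, Schwann cell and Y-linked lists had 3, 5 and 4 tested members and also gave 0.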

How the data were processed

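RNA of 12 dissected tumors, 3 a group, was sequenced from 1 library each. The authors quantified transcripts with kallisto, and the submitters' processing notes also name DESeq2. The deposited tables hold, for each RefSeq transcript, an estimated count, an effective length in bases (not normalized) and TPM. Here estimated counts were summed over the transcripts of a gene and rounded (120299 transcripts, 38898 genes). The labels describe both a stranded kit and a non-stranded library, so overlapping genes on opposite strands cannot be told apart. Reads were quantified by the authors against a GRCm38 transcriptome index, the version of the software is not given in the sources used here, and TPM entered no test.

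Genes passing filterByExpr with a minimum count of 10 were tested with edgeR 4.0.16 (TMM, quasi-likelihood test, all 12 tumors in 4 groups), with limma 3.58.1 and DESeq2 1.42.0 under R 4.3.3 as alternatives. The threshold was an adjusted p of 0.1. Fits of 12 tumors were tested on data simulated with edgeR's own estimates of the spread. There the share of false calls stayed under the threshold in edgeR and exceeded it in DESeq2. Estimated counts include multi-mapping reads shared out by the software, so values of near-identical genes (globins, tubulins, Ifit and Gbp families, MHC genes) are uncertain. Each tumor came from another mouse, and p-values measure the spread between these tumors. No library pair of a group agreed within sampling noise (chi-square per gene 14.6 to 86.3).

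Named genes were the 12 higher and 12 lower ones with the smallest p whose groups did not overlap (mean CPM of at least 1 in the higher group, no clone names), Chac1, Foxm1, Mki67, Pecam1, Vegfa and 1 gene that is not reported here, and, from the lists, members with the smallest p or the highest mean. Those members are named only where a result is described. Genes outside the rule are those with a printed promoter except Oas1g, and Myf5, Myog, Tuba1b, Folr1, Folr2, Axin2, Thbs4 and Ankrd2. They were chosen after their values were seen. The compared tumors and the gene lists were chosen with earlier results of these data known. Orientation of the promoter entries was checked against GENCODE transcripts (35 of 37 matched, including all those printed). GC content came from GENCODE transcripts.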

Additional observations from a re-analysis of the deposited data

How the results depend on the processing

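No paired analysis was possible because the labels give the groups no shared replicate numbers. The count of called genes was 0 in edgeR under every alternative run (DESeq2 size factors, no filter or a mean count of 50, robust fitting, the 6 tumors alone, length offsets, terms for muscle fiber RNA and Y-linked transcripts, an adjusted p of 0.05) and in limma-voom. A Y-linked term at 10 CPM, splines of GC content and length, and leaving out each Vehicle or RCM1-NPFA tumor were chosen after seeing the data. DESeq2 called 11 genes with 12 tumors and 45 with 6, and fits without one tumor called between 0 and 133. For the difference of the RCM1-NPFA effect with and without VCR, edgeR called 0, DESeq2 called 461, and fits without one tumor called between 0 and 1133. The cause was not tested.

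Of 87 genes named, 76 kept their sign in every fit. In fits with all tumors Vegfa was 0.038 and Folr2 0.032 with the splines, Folr2 0.064 with the Y-linked term at 1 CPM, Cd74 -0.10 by limma-voom and Myh4 0.73 with the fiber term. Without one tumor, by edgeR or DESeq2, values ran from -0.065 to 0.033 for Foxm1, -0.203 to 0.047 for Pecam1, -0.083 to 0.038 for Vegfa, -0.068 to 0.829 for H2-D1, -0.267 to 0.753 for Cd74, -1.98 to 0.381 for Myh4, -0.167 to 0.002 for Myf5, -0.286 to 0.131 for Folr2, -3.351 to 0.084 for Cd79a, -3.849 to 0.073 for Hba-a1 and -5.548 to 0.518 for Hbb-bt. With 3 tumors a group and a median SE of 0.158, differences of that size cannot be told from 0.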
